A study of Homo sapiens with 36 samples.

Results

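The 10 genes described here set the pace of the first gap phase of the cell cycle (G1): the CDK inhibitors CDKN1A, CDKN1B, CDKN1C and CDKN2B, the D cyclins CCND1, CCND2 and CCND3, the E cyclins CCNE1 and CCNE2, and the transcription factor gene MYC. They were chosen by name, with no threshold on a value but with earlier results of these data known, out of 60725 Ensembl genes in each table. Of the 10, 9 had counts and CDKN2B had none. The 36 RNA libraries form 18 groups, each of 2 libraries. All 20 ER-Src libraries come from MCF-10A, human breast epithelial cells that are not themselves transformed, carrying v-Src joined to the part of the estrogen receptor that binds ligand. Src activity in them follows addition of tamoxifen (TAM), with ethanol (ETH) as vehicle. Under each treatment the cells had a control siRNA (Ctrli) or an siRNA against YAP (YAPi), TAZ (TAZi), STAT3 (STAT3i) or JUNB (JUNBi). The other 16 libraries come from MDA-MB-231, a line derived from a triple-negative breast carcinoma, in 2 sets that each had controls of their own. In set 1 the siRNA groups were Ctrli, YAPi, TAZi, YAPi_TAZi (both siRNAs at once) and TEADi (siRNA against TEAD factors). In set 2 they were Ctrli, JUNBi and STAT3i. The treatment notes, worded alike for every library, name the kinase inhibitor AZD0530 beside tamoxifen without saying which libraries received it, and the labels give no time in TAM. The paper's methods state that siRNA-transfected ER-Src cells received tamoxifen together with AZD0530, for 1 of 2 times. Which time applied to the RNA libraries is not stated there. TAM against ETH may therefore compare both compounds together with ethanol.

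In G1, D cyclins bind CDK4 and CDK6 and E cyclins bind CDK2, and the active kinases phosphorylate the retinoblastoma protein, which frees E2F factors to switch on genes for DNA replication. CDKN1A, CDKN1B and CDKN1C encode p21, p27 and p57, which bind cyclin-CDK complexes and hold the kinase back, while CDKN2B encodes p15, which acts on CDK4 and CDK6 alone. MYC drives growth and ribosome production and is known to repress CDKN1A and CDKN2B transcription. YAP and TAZ are co-activators that reach DNA through TEAD factors, often near AP-1 factors such as JUNB, and are known for growth control in epithelia.

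In the RefSeq promoter table (GRCh38.p14), 5 of the 10 genes had an entry. The 250 bases before the start site are shown for CDKN1A, the inhibitor called in YAPi and TAZi in both cell lines, and for the one CCND3 start whose window holds the letters of a TEAD motif. The CDKN1A window lies at chr6:36678464-36678713 on the plus strand, within the wider gene, and the CCND3 window at chr6:41941809-41942058 on the minus strand. The capitals mark GGAATG read on the opposite strand, 41 to 36 bases before the CCND3 start.
CDKN1A: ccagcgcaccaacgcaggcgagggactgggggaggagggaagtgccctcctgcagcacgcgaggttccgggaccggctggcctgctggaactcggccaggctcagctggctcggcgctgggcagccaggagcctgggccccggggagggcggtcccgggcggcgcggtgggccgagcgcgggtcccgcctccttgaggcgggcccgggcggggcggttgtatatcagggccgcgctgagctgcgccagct
CCND3: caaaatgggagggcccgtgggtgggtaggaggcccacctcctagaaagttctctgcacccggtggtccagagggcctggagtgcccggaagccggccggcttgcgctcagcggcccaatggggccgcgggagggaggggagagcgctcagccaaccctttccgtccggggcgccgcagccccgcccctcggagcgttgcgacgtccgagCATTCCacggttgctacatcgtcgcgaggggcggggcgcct
The motifs searched on both strands were TGANTCA for AP-1, GGAATG for TEAD, TTCNNNGAA for STAT, CACGTG for the E-box, and TTTGGCGC and TTTCCCGC for E2F. The search covered the 250 bases before and the 50 after each start site, of which the 50 are not shown. The TEAD letters stood in 2 of the 7 windows of the members (CDKN2B and this CCND3 start) and in 14% of all 35116 promoters, and no other motif stood in any of the 7. The searched CDKN1A window held none of them, which says only that these letters are not within it. Of the others, AP-1 letters stood in 7.71%, STAT in 7.66%, the E-box in 7.26% and the E2F forms in 0.652% and 1.63% of all promoters.

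Total expected counts ran from 6419720 to 19161700 in ER-Src and from 7290499 to 18076158 in set 2. Both set 1 controls were deep (13456784 and 13534560), whereas none of the 8 knockdown libraries beside them passed 2784605 and the shallowest had 1411304. Of the deposited TPM, protein-coding genes took 20.2% to 28.9% across the ER-Src libraries and 20.0% to 37.9% across set 1 siRNA libraries other than controls, against 94.4% to 94.5% in the set 1 controls and 94.0% to 94.3% in set 2. In ER-Src, deposited length minus effective length was 49 bases in every STAT3i and JUNBi library and 49.47 to 49.49 in all others. A library difference that goes with this cannot be told apart from the siRNA in STAT3i or JUNBi against Ctrli. Among the set 1 knockdowns, the 4 libraries of replicate 1 had a protein-coding share of 20.0% to 23.2% and the 4 of replicate 2 one of 36.9% to 37.9%, and deposited length minus effective length was 48 bases in the former and 74.56 to 74.57 in the latter, so the replicates there stand apart from each other. Levels below are therefore TPM rescaled so that protein-coding genes alone make up the TPM total of each library (pcTPM), a scale per length chosen after the data were seen. Fold changes are DESeq2 log2 estimates from counts, with their standard error (SE), and a gene was called at a Benjamini-Hochberg adjusted p under 0.01 over all genes tested. The siRNA targets fell in their own groups, with log2 fold changes of -2.49 (TAM) and -2.38 (ETH) for YAP1, -2.22 and -1.86 for WWTR1 (TAZ), and -2.66 and -1.88 for STAT3. JUNB fell by 2.03 in JUNBi under TAM, but its change of -1.16 under ETH was not called (DESeq2 adjusted p = 0.0637), and it also fell by 2.41 in STAT3i under TAM. In set 1 the log2 fold changes against controls were -2.63 for YAP1 in YAPi, -4.90 for WWTR1 in TAZi and -1.14 for WWTR1 in YAPi. In TEADi, TEAD4 had 0 and 1 expected counts beside 328 and 315 in Ctrli and TEAD2 had 2 and 2, while TEAD1 and TEAD3 had log2 fold changes of -0.82 and -1.62. On pcTPM TEAD1 did not stand apart, at 40.9 and 49.5 in TEADi beside 50.1 and 41.7 in Ctrli. TEAD4 was also lower than in Ctrli in YAPi (-1.38), TAZi (-1.36) and YAPi_TAZi (-2.05). Of the 8 basal epithelial markers, KRT5 stood at 4296 to 10790 pcTPM in ER-Src, at 49.6 or less in set 1 and at 0 in all 6 set 2 libraries, and KRT14, KRT6A, KRT17, TP63 and CDH1 were likewise lower in every MDA-MB-231 library than in any of ER-Src. LAMB3 was not, at 141.4 to 452.5 in ER-Src, 139.6 to 384.4 in set 1 and 166.5 to 210.6 in set 2, and EPCAM stood at 24.6 to 114.4, 13.8 to 31.9 and 4.28 to 10.7. Of the 6 mesenchymal markers, VIM stood at 744.7 to 2743 over all 36, but SPARC, at 79.5 to 171.8 in ER-Src, reached 2.79 in MDA-MB-231, and CDH2, at 10.5 to 24.4, reached 3.99. ZEB1 stood at 9.36 to 20.7 in ER-Src, 15.7 to 62.6 in set 1 and 0.871 to 1.53 in set 2, CAV1 at 65.8 or more and FN1 at 15.3 or more in every library. Of the leukocyte markers reported here, PTPRC reached 0.327 pcTPM, CD3E 0.977 and LYZ 1.63, and of the 4 endothelial markers CDH5 reached 0.0848, VWF 0.276, PECAM1 2.88 and KDR 8.06.

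CDKN2B was not detected in either line. It had 0 expected counts in all 36 libraries, which allows up to 3 counts per library, or 0.157 to 2.13 CPM depending on depth (3 counts over the library total). CDKN2A, the neighbouring inhibitor gene on chromosome 9, also had 0 counts in all 36. CDKN2B lies at 22002903-22009305 on the minus strand of chromosome 9. Its antisense gene CDKN2B-AS1 reached at most 1 count and MTAP, another neighbour, at most 3. KLHL9, farther along the same arm, had 157 to 531 counts in ER-Src but at most 1 in MDA-MB-231. These neighbours were looked up after the values of CDKN2B were seen.

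CDKN1A rose when YAP or TAZ was depleted in ER-Src cells, under both treatments. The gene lies on chromosome 6 (36676460-36687337, plus strand), with the lncRNA gene DINOL on the opposite strand. In Ctrli it stood at 116 and 125 pcTPM under ETH and at 105 and 113 under TAM. YAPi gave 233 and 348 under ETH and 201 and 297 under TAM. TAZi gave 178 and 240 under ETH and 140 and 187 under TAM. All 8 of these knockdown libraries stood above all 4 control libraries. In bulk RNA, a change in the number of cells that express a gene and a change in RNA per cell cannot be told apart. CDKN1A was not called in STAT3i or JUNBi. STAT3i gave 79.0 and 130 under ETH and 78.2 and 99.2 under TAM, both below Ctrli in the latter (overlapping it on the deposited TPM). JUNBi gave 123 and 202 under ETH, overlapping Ctrli, and 114 and 121 under TAM, just above it. Against Ctrli the log2 fold change was 1.17 (SE 0.17, DESeq2 adjusted p = 2.8e-10) in YAPi under TAM and 1.23 (SE 0.32, adjusted p = 0.00165) under ETH. In TAZi it was 0.61 (SE 0.14, adjusted p = 0.00084) under TAM and 0.76 (SE 0.15, adjusted p = 2e-05) under ETH. The YAPi call under TAM held when any 1 of the 4 libraries was left out. Under ETH the YAPi call was lost without either control library (adjusted p = 0.275 without replicate 1 and 0.201 without replicate 2). The TAZi call under TAM was lost without control replicate 1 (0.0759) or TAZi replicate 2 (0.689), and that under ETH without control replicate 1 (0.0761), control replicate 2 (0.0153) or TAZi replicate 2 (0.0607). edgeR made neither TAZi call (adjusted p = 0.0291 under TAM and 0.0105 under ETH). The effect of YAPi did not differ detectably between treatments (difference -0.07, 95% interval -0.58 to 0.43), nor did that of TAZi (-0.17, -0.57 to 0.23), STAT3i (-0.16, -0.71 to 0.39) or JUNBi (-0.31, -0.95 to 0.32).

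CDKN1C had the widest range of the 10 genes in ER-Src and was the one gene of them whose response to a knockdown was called as different between treatments. It lies on chromosome 11 (2883213-2885775, minus strand) and no annotated gene overlaps it. Its group means ran from 2.15 pcTPM in TAZi under TAM to 82.6 in JUNBi under ETH, 38.4-fold apart. In Ctrli it stood at 8.15 and 14.2 pcTPM under ETH and at 2.37 and 5.35 under TAM. STAT3i gave 13.8 and 16.0 under ETH and 42.5 and 41.3 under TAM. In STAT3i cells CDKN1C was thus higher under TAM than under ETH, while in the other 4 siRNA groups both TAM libraries stood below both ETH libraries. JUNBi gave 55.9 and 109 under ETH and 7.97 and 9.57 under TAM. TAZi gave 16.9 and 27.6 under ETH and 1.79 and 2.51 under TAM, and YAPi 9.71 and 19.2 under ETH and 3.10 and 6.23 under TAM.

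Against Ctrli, CDKN1C rose in STAT3i under TAM by 3.29 (SE 0.33, DESeq2 adjusted p = 5.6e-21), a 10.9-fold difference in mean pcTPM, and stood at 0.31 (SE 0.39, adjusted p = 1) under ETH. The interaction of STAT3 siRNA with treatment was 2.96 (SE 0.50, adjusted p = 1.2e-06), and 0.432% of all genes tested were called as higher in that interaction. It was called without any 1 of the 8 libraries, but edgeR's quasi-likelihood test gave an adjusted p of 0.018. JUNB itself fell more in STAT3i under TAM than under ETH (difference -2.19, SE 0.35, adjusted p = 1e-07), and its part in the CDKN1C result was not tested. The STAT3i and JUNBi libraries also differed from Ctrli in length minus effective length, as given above. In JUNBi, CDKN1C rose by 2.71 under ETH (SE 0.42, adjusted p = 2.1e-08), a call lost without control replicate 1 (adjusted p = 0.013) and in edgeR (adjusted p = 0.0841), and under TAM the value was 0.84 (SE 0.53, adjusted p = 0.33). JUNB itself stood at 14.3 and 36.5 pcTPM in JUNBi replicates 1 and 2 under ETH, beside 43.05 and 54.4 in Ctrli. Replicate 2, with more JUNB left, also had more CDKN1C, and a link between these levels was not tested. Over all genes the 2 JUNBi libraries under ETH were the farthest apart of any ER-Src group (SD of log2 ratios 0.85). The difference between treatments was -1.89 in JUNBi (95% interval -3.14 to -0.64, adjusted p = 0.25) and -2.07 in TAZi (-3.41 to -0.72), where independent filtering left no adjusted p. For YAPi, TAZi and JUNBi no member was called in the interaction, of 9, 5 and 9 tested, while 0.498%, 1.6% and 0.288% of all genes were. There, 0, 2 and 1 members had an unadjusted DESeq2 p under 0.05, and edgeR called none.

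Read within each siRNA, TAM lowered CDKN1C by 3.43 on the log2 scale in TAZi (SE 0.45, DESeq2 adjusted p = 1.5e-12) and by 3.27 in JUNBi (SE 0.41, adjusted p = 3.2e-13). In both, the call held without any 1 of the 4 libraries, but without ETH replicate 2 the change was -2.80 in TAZi and -2.45 in JUNBi. In edgeR it held in TAZi (adjusted p = 0.00055) and was lost in JUNBi (0.0409). In STAT3i, TAM raised it by 1.57 (SE 0.27, adjusted p = 2.8e-06), a call lost without either TAM library (adjusted p = 0.232 without replicate 1 and 0.0988 without replicate 2) and in edgeR (0.0425). In Ctrli the TAM change was -1.36 (SE 0.52, adjusted p = 0.0903) and in YAPi -1.51 (SE 0.49, adjusted p = 0.0347). The Ctrli TAM libraries held 24 and 29 expected counts of CDKN1C and the TAZi TAM libraries 17 and 27, so these low levels rest on few reads.

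**Figure D1:**
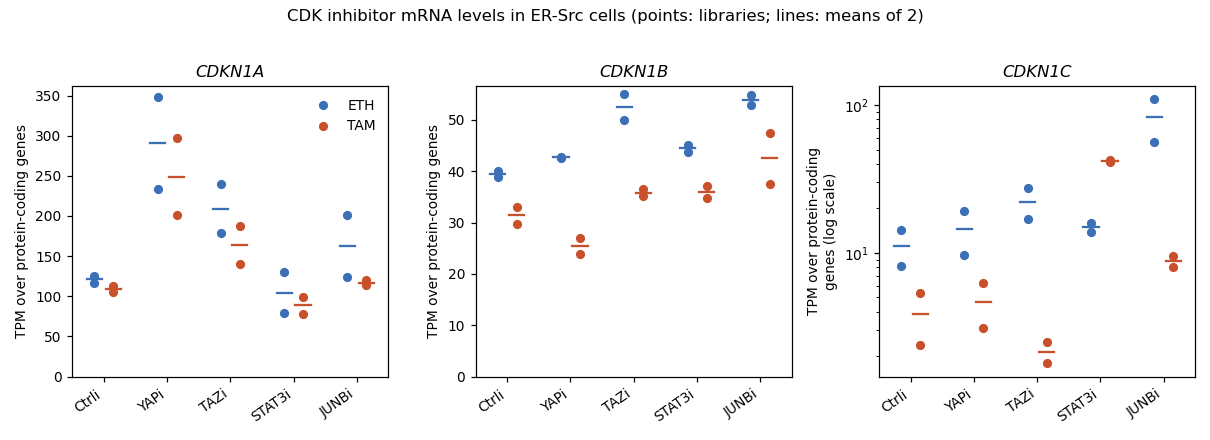
Levels of CDKN1A, CDKN1B and CDKN1C in TPM over protein-coding genes (y axis, logarithmic for CDKN1C) in each ER-Src library (points), by siRNA and treatment (ETH blue, TAM orange), with lines at the mean of 2 libraries. The YAPi and TAZi points of CDKN1A all lie above the Ctrli points, and STAT3i is the one siRNA in which the TAM points of CDKN1C (42.5 and 41.3) lie above the ETH points.

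CDKN1B, the third of the inhibitors with counts, stayed within a narrow range in ER-Src. It lies on chromosome 12 (12685498-12722369, plus strand) and overlaps GPR19 on the opposite strand. Group means ran from 25.5 pcTPM in YAPi under TAM to 53.8 in JUNBi under ETH, 2.11-fold apart. In Ctrli the libraries stood at 40.0 and 38.8 under ETH and at 33.1 and 29.7 under TAM. In all 5 siRNA groups both TAM libraries stood below both ETH libraries, although the JUNBi libraries overlapped on the deposited TPM, and the log2 fold changes from counts lay between -0.31 and -0.14 and none was called. No knockdown changed CDKN1B past the threshold, with values from -0.23 to 0.31.

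Among the D cyclins, CCND1 and CCND2 rose with YAP siRNA. CCND1 lies on chromosome 11 (69641156-69654474, plus strand) and overlaps LTO1 on the opposite strand. It stood at 119 and 140 pcTPM in Ctrli under ETH and at 80.5 and 87.1 under TAM. YAPi raised it to 203 and 239 under ETH and to 147 and 169 under TAM, above every Ctrli library of the same treatment. The log2 fold change was 1.29 under TAM (SE 0.14, DESeq2 adjusted p = 9.9e-18) and 1.28 under ETH (SE 0.12, adjusted p = 9.4e-26), and both calls held without any 1 library. The deposited effective length of CCND1, which RSEM derives from the isoforms it assigns reads to, was 1489 to 2054 bases in the Ctrli libraries and 2662 to 2926 in YAPi. With offsets for that length, the YAPi changes were 0.89 under TAM and 0.68 under ETH, still called (adjusted p = 8.6e-08 and 7.6e-05). JUNBi libraries had lengths of 2415 to 3559 bases. JUNBi levels were 50.7 and 56.1 pcTPM under TAM, below both Ctrli libraries, and 54.0 and 95.6 under ETH. The count-based change of -0.22 under TAM (SE 0.15, adjusted p = 0.398) became -0.68 with the length offsets (adjusted p = 0.00295), so this call depends on how length is treated. TAM lowered CCND1 in TAZi (log2 fold change -0.46, SE 0.13, adjusted p = 0.00445), a call lost without any 1 of the 4 libraries (adjusted p = 0.0146 to 0.51) and in edgeR (0.0274).

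**Figure D2:**
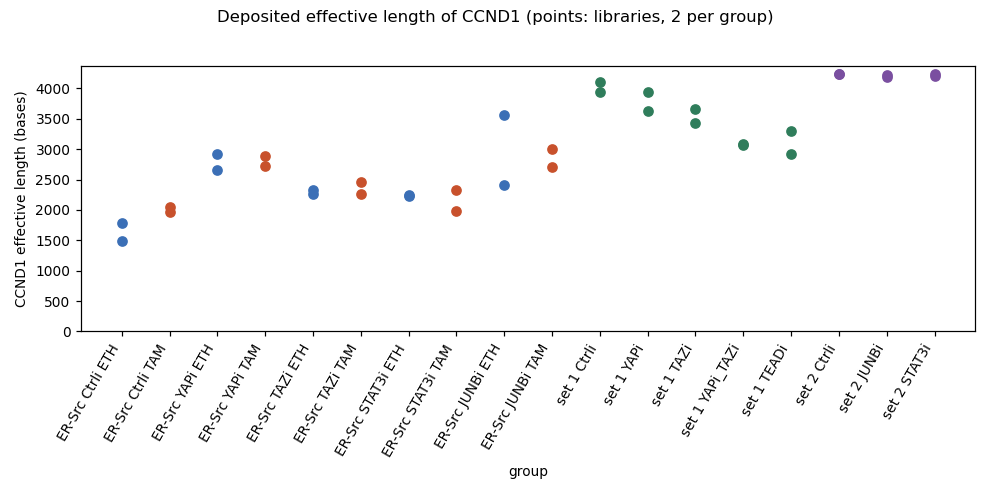
Effective length of CCND1 in bases (y axis) in each library (points), by group (x axis: ER-Src by siRNA and treatment, then MDA-MB-231 sets 1 and 2). In ER-Src the YAPi points lie at 2662 to 2926 bases and the Ctrli points at 1489 to 2054 (blue ETH, orange TAM, green set 1, purple set 2).

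CCND2 was the D cyclin that moved with the most siRNAs. It lies on chromosome 12 (4269771-4305353, plus strand), where CCND2-AS1 lies on the opposite strand and a further gene overlaps it on its own strand. It stood at 11.03 and 12.4 pcTPM in Ctrli under ETH and at 7.59 and 6.14 under TAM. YAPi gave 32.5 and 29.0 under ETH and 21.0 and 24.1 under TAM, and TAZi 25.1 and 26.7 under ETH and 12.3 and 15.2 under TAM. STAT3i gave 10.8 and 14.5 under TAM, again above both controls. The log2 fold change in YAPi was 1.51 under TAM (SE 0.19, DESeq2 adjusted p = 1.5e-13) and 1.18 under ETH (SE 0.15, adjusted p = 5.7e-13), each called without any 1 library. TAZi raised it by 0.87 under TAM (SE 0.20, adjusted p = 0.00122) and by 0.88 under ETH (SE 0.16, adjusted p = 2.6e-06), and STAT3i by 0.80 under TAM (SE 0.23, adjusted p = 0.00649). The TAZi and STAT3i calls under TAM were lost without any 1 of their 4 libraries, with an adjusted p of 0.0202 to 0.689 in TAZi and 0.0405 to 0.328 in STAT3i. The TAZi call under ETH held without TAZi replicate 2 alone (0.00651), and was lost without TAZi replicate 1 (0.0156), control replicate 1 (0.0547) or control replicate 2 (0.0166). TAM against ETH gave -0.71 in TAZi (SE 0.16, adjusted p = 0.00017), a call lost without any 1 library (0.0299 to 0.177). In JUNBi it gave -1.04 (SE 0.28, adjusted p = 0.00903), lost without ETH replicate 1 (0.0351), TAM replicate 1 (0.637) or TAM replicate 2 (0.822). In Ctrli the TAM change was -0.67 (SE 0.21, adjusted p = 0.0208), which edgeR called (adjusted p = 0.00997).

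CCND3 changed least of the D cyclins. It lies on chromosome 6 (41934934-42050357, minus strand). The Ctrli libraries stood at 116 and 114 pcTPM under ETH and at 76.6 and 74.5 under TAM, and YAPi under TAM at 107 and 120. That rise, 0.62 on the log2 scale (SE 0.14, DESeq2 adjusted p = 0.00027), was called with all libraries and lost without any 1 of the 4 (adjusted p = 0.023 to 0.146). Neighbours in the order of the 10 group means overlapped at all 9 steps. In Ctrli the effective length of CCND3, which enters pcTPM, was 1211 and 1267 bases under ETH and 1563 and 1680 under TAM. From counts, its TAM change in Ctrli was not called.

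Of the E cyclins, CCNE1 changed little in ER-Src, and CCNE2 was lowest in Ctrli under TAM. CCNE1, on chromosome 19 (29811991-29824312, plus strand), had group means from 13.2 to 21.2 pcTPM, and no knockdown or TAM change was called, with log2 values from -0.32 to 0.44. CCNE2, on chromosome 8 (94879770-94896678, minus strand), overlaps INTS8 and NDUFAF6 on the opposite strand. It stood at 22.7 and 19.6 pcTPM in Ctrli under ETH and at 9.03 and 10.6 under TAM, the lowest group mean. Its deposited effective length, which enters pcTPM, was 1006 and 988 bases in Ctrli under ETH and 1187 and 1463 under TAM. From counts, the TAM change of CCNE2 in Ctrli was not called and had no unadjusted DESeq2 p under 0.05. All 8 knockdown libraries under TAM stood above both Ctrli libraries, at 15.1 to 23.1. Only JUNBi was called, at 1.20 (SE 0.34, DESeq2 adjusted p = 0.00556), and that call was lost without any 1 of its 4 libraries (adjusted p = 0.0228 to 0.41). The others stood at 0.98 in YAPi (adjusted p = 0.0299), 1.12 in TAZi (0.0176) and 0.85 in STAT3i (0.0947). These 4 comparisons share the same 2 control libraries.

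MYC was the most abundant transcript of the 10 under TAM in Ctrli and did not respond to any knockdown in ER-Src past the threshold. It lies on chromosome 8 (127735434-127742951, plus strand), with CASC11 on the opposite strand. Ctrli stood at 217 and 215 pcTPM under ETH and at 175 and 192 under TAM. YAPi gave 196 and 205 under TAM, TAZi 191 and 184, STAT3i 142 and 158, and JUNBi 155 and 171. The log2 fold changes against Ctrli ran from -0.31 to 0.23 over the 8 comparisons. For YAPi under TAM the 95% interval was -0.21 to 0.25, and for STAT3i it was -0.56 to -0.07 (adjusted p = 0.0828). TAM lowered MYC by 0.43 in TAZi (SE 0.11, DESeq2 adjusted p = 0.00278), a call that edgeR did not make (adjusted p = 0.0504) and that was lost without ETH replicate 2 (0.301), TAM replicate 1 (0.16) or TAM replicate 2 (0.463).

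**Figure D3:**
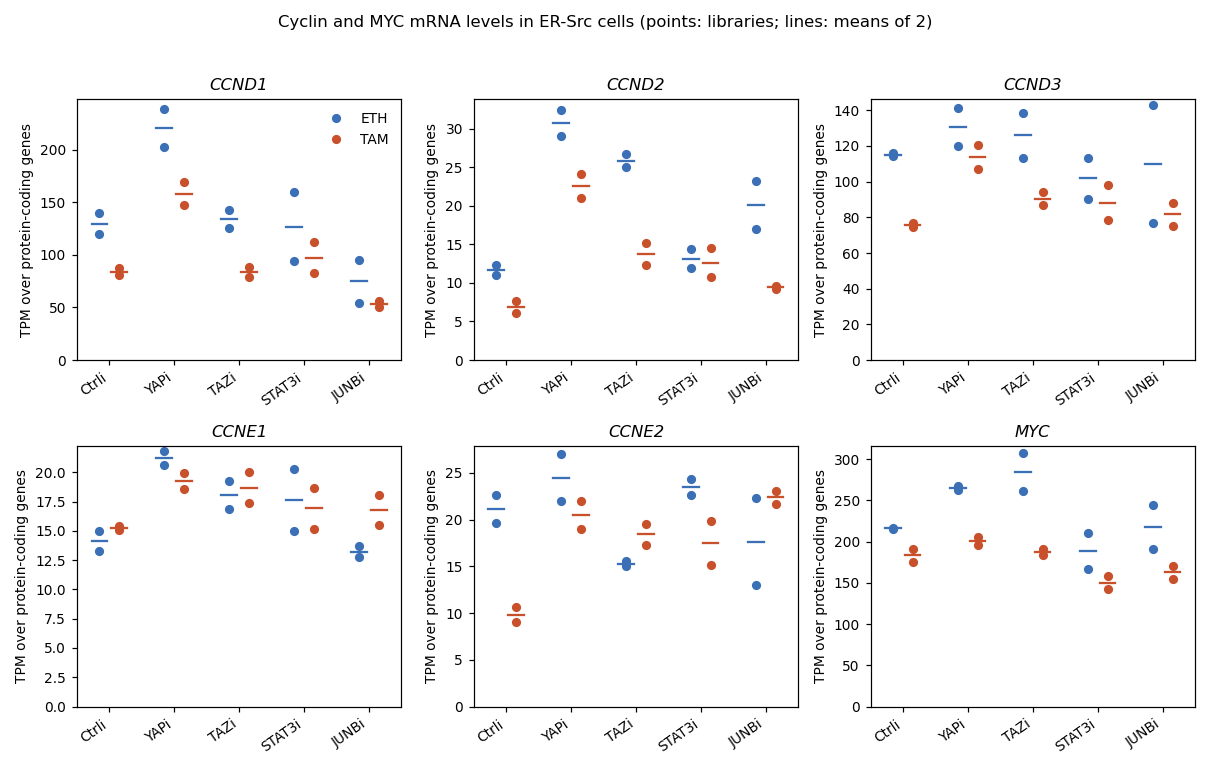
Levels of the D cyclins, E cyclins and MYC in TPM over protein-coding genes (y axes, from 0) in each ER-Src library (points), by siRNA and treatment (ETH blue, TAM orange), with lines at the mean of 2 libraries. YAPi stands above Ctrli for CCND1 and CCND2 under both treatments, whereas MYC stays between 142 and 308 in all 20 libraries.

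Counted over the 9 genes with counts, every knockdown call in ER-Src was a rise. Under TAM, YAPi raised 4 of the 9 (5.27% of all genes tested were called as higher), TAZi 2 (1.75%), STAT3i 2 (3.34%) and JUNBi 1 (2.84%). Under ETH, YAPi raised 3 (5.11%), TAZi 2 (2.6%) and JUNBi 1 (1.19%), and STAT3i changed 0 (0.189% in either direction), where 1 member had an unadjusted DESeq2 p under 0.05 and edgeR called 0. The median log2 fold change of the 9 was 0.62 in YAPi under TAM beside 0.01 over all genes tested. TAM lowered 4 members in TAZi (2.75% of all genes were called as lower) and 2 in JUNBi (0.73%), and raised 1 in STAT3i (0.722% were called as higher). In Ctrli it changed 0 (6.21% of all genes in either direction), where 3 members (CDKN1C, CCND1 and CCND2) had an unadjusted DESeq2 p under 0.05 and edgeR called 1, CCND2. In YAPi it changed 0 (4.5%), where 4 members had an unadjusted DESeq2 p under 0.05 and edgeR called 0. The comparisons of one treatment share their Ctrli libraries.

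Among the wider cell cycle lists, S phase genes had the most calls. Of 16 S phase genes, YAPi lowered 10 under TAM and 11 under ETH and raised none, where 10.7% and 11.6% of all genes tested were called, with list medians of -0.65 and -0.78 beside 0.01 and -0.00 over all genes tested. Among them CCNB1, a mitotic cyclin, fell by 1.07 under TAM and MKI67, a marker of cycling cells, by 1.25 under ETH. TAZi lowered 1 under TAM and 7 under ETH (3.42% and 5.24% of all genes called), JUNBi 1 and 7 (6.9% and 2.8%), and STAT3i 1 and 0 (8.22% and 0.189%). TAM itself lowered 3 in Ctrli (6.21%), including PCNA, the DNA polymerase clamp, by 0.59. The other lists held fewer calls, and 2 of the 10 G1 kinases and partners tested in YAPi under TAM, 2 of 11 under ETH and 2 of 13 RB and E2F genes under TAM are not far from the 10.7% and 11.6% of all genes. Of the 12 G1 kinases and partners listed, YAPi lowered CDK2, the kinase of E cyclins, by 0.77 under TAM and 0.71 under ETH, and CCNA2, its S phase cyclin, by 0.87 and 0.72. TAZi raised CDK6 by 0.58 under TAM and 0.55 under ETH, and CCNA2 had log2 fold changes of -0.43 and -0.51 there, also called. Of 13 genes for the turnover of G1 regulators, YAPi lowered 3 under TAM and 4 under ETH, among them SKP2, which targets p27 for destruction, by 0.76 and 0.74, and its partner CKS1B by 1.07 and 0.99. Of 13 RB and E2F genes, 1 rose (E2F3, 0.77) and 1 fell (RBL2, by 0.55) in YAPi under TAM and none under ETH. Of 12 MYC partners and antagonists, of which 11 were tested, YAPi raised 3 under TAM, MAX, MXD4 and 1 other, and lowered MXD3 by 1.04. Of 12 MYC-driven growth genes, YAPi lowered 3 under TAM and 4 under ETH, among them FBL, a nucleolar methyltransferase, by 1.04 and 1.27, and raised 1 in each. Fewer cells in S phase and less of these RNAs per cell cannot be told apart in bulk RNA. The paper reports that knockout of YAP or TAZ left proliferation at high attachment unchanged, with similar results after siRNA.

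**Figure D4:**
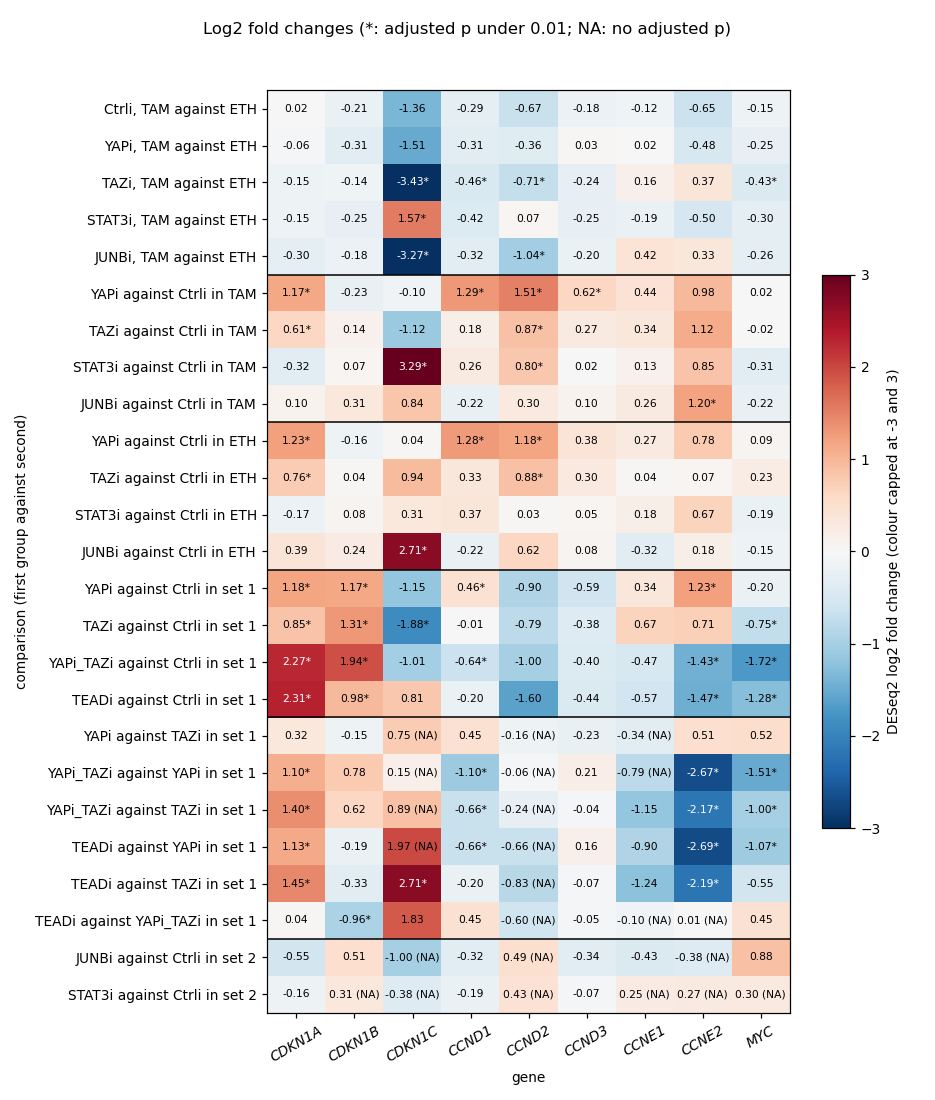
DESeq2 log2 fold changes of the 9 genes with counts (columns) in each comparison (rows, first group against second), printed in each cell and shown by colour from blue (lower) to red (higher), with a star at an adjusted p under 0.01 and NA where filtering left no adjusted p. CDKN1A is starred wherever YAPi or TAZi is set against Ctrli, in both cell lines, and MYC is starred in 1 ER-Src row, that of TAM against ETH in TAZi.

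In MDA-MB-231 set 1, CDKN1A was highest after double or TEAD knockdown, and on the pcTPM scale lowest in the controls. It stood at 95.4 and 102 pcTPM in Ctrli, 274 and 256 in YAPi, 236 and 196 in TAZi, 614 and 559 in YAPi_TAZi, and 638 and 490 in TEADi. MYC was lowest after double or TEAD knockdown, and its YAPi libraries spanned the controls, at 133 and 128 in Ctrli, 145 and 117 in YAPi, 102 and 87.7 in TAZi, 51.3 and 47.0 in YAPi_TAZi, and 64.7 and 66.0 in TEADi. CCNE2 stood at 21.5 and 17.6 in Ctrli, 52.0 and 78.9 in YAPi, 48.1 and 32.3 in TAZi, 14.6 and 14.2 in YAPi_TAZi, and 7.94 and 12.6 in TEADi. The deposited effective length of CCNE2, which enters pcTPM, was 662 and 1521 bases in YAPi_TAZi and 2193 and 1167 in TEADi. It was 1742 and 1356 bases in YAPi and 1583 and 2243 in TAZi. For CDKN1A and CCNE2, both libraries of the double and the TEAD knockdown lay clear of both libraries of each single knockdown, in opposite directions. MYC lay clear as well, below the single knockdowns, on pcTPM. On the deposited TPM its TEADi libraries (13.1 and 24.65) overlapped those of TAZi (20.4 and 32.9). In each pair above replicate 1 comes first, and within replicate 1 and within replicate 2 alike CDKN1A was higher, and MYC and CCNE2 lower, in YAPi_TAZi and TEADi than in YAPi and TAZi. The place of the controls turned on the scale. On the deposited TPM CDKN1A stood at 90.2 and 96.2 in Ctrli, 58.1 and 96.9 in YAPi, 47.05 and 73.5 in TAZi, 142 and 206 in YAPi_TAZi, and 129.5 and 183 in TEADi, so TAZi was lowest. MYC stood at 125.7 and 120.5 TPM in Ctrli and at 30.8 and 44.4 in YAPi, below the controls, where the count fit gave a log2 fold change of -0.20. CDKN1B, at 31.7 and 28.8 pcTPM in Ctrli, reached 154 and 127 in YAPi_TAZi.

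**Figure D5:**
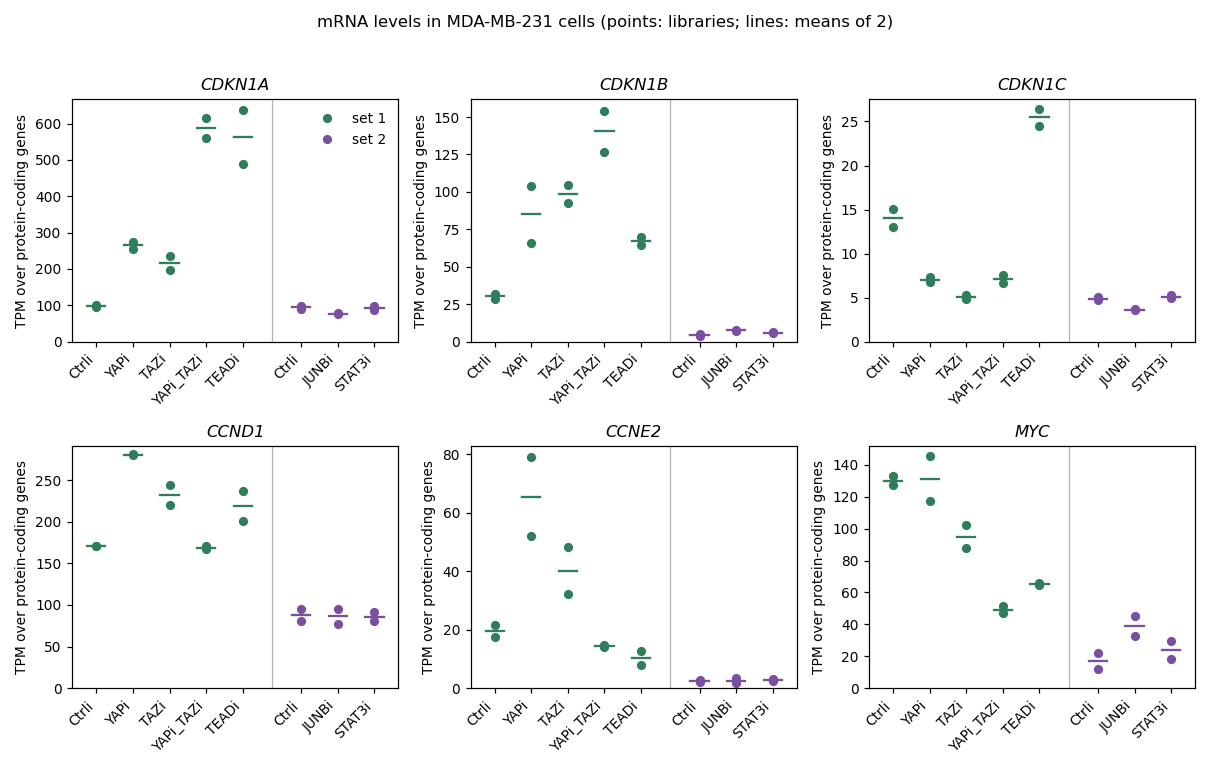
Levels of 6 genes in TPM over protein-coding genes (y axes, from 0) in each MDA-MB-231 library (points), by siRNA, with lines at the mean of 2 libraries (set 1 green, set 2 purple, separated by the grey line). CDKN1A is highest and MYC and CCNE2 are lowest within set 1 in YAPi_TAZi and TEADi.

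Against the set 1 controls, CDKN1A rose by 1.18 in YAPi, 0.85 in TAZi, 2.27 in YAPi_TAZi and 2.31 in TEADi on the log2 scale, all called without any 1 library. CDKN1B rose by 1.17, 1.31, 1.94 and 0.98 in the same order, and its YAPi and TEADi calls were lost without either control (DESeq2 adjusted p = 0.0172 and 0.017 in YAPi, 0.069 and 0.0645 in TEADi). MYC had log2 fold changes of -0.75 in TAZi, -1.72 in YAPi_TAZi and -1.28 in TEADi, of which the TAZi call was lost without either control (0.0364 and 0.0222). CCNE2 was called in YAPi (1.23), YAPi_TAZi (-1.43) and TEADi (-1.47), CDKN1C in TAZi (-1.88) and CCND1 in YAPi (0.46), each lost in at least 2 of the 4 fits without 1 library. YAPi raised 4 members (12.4% of all genes tested were called as higher). TAZi raised 2 and lowered 2 (16% higher, 16.8% lower), YAPi_TAZi raised 2 and lowered 3 (17.3% higher, 18.2% lower), and TEADi raised 2 and lowered 2 (13.5% higher, 14% lower). The controls differed from the knockdown libraries in depth and in the share of protein-coding TPM, as given above, and siRNA and library type cannot be told apart in these comparisons. With the controls of both sets, 1 of the 17 calls remained, CDKN1B in YAPi_TAZi (2.52, DESeq2 adjusted p = 0.00015). The mean of CDKN1B was 30.2 pcTPM in the set 1 controls and 4.43 in those of set 2. Adding the latter lowers the control level that it is compared with. The scale mattered for CCND1, which fell by 0.64 in YAPi_TAZi in the count fit (adjusted p = 5.7e-14) but stood at 167 and 171 pcTPM beside 171 and 171 in Ctrli. For CCNE2 in YAPi_TAZi the count fit gave -1.43 and the ratio of mean pcTPM -0.44 on the log2 scale.

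The set 1 knockdowns can be compared with each other without those controls. As their replicates 1 and 2 differ in library properties (above), each of these comparisons was also fitted with the replicate number as a term, pairing same-numbered libraries: all 16 member calls held, and CCND1 in YAPi against TAZi (0.45, DESeq2 adjusted p = 0.0004) and CDKN1B in YAPi_TAZi against YAPi (0.78, adjusted p = 0.00265) were called in addition. CDKN1A was higher in YAPi_TAZi than in YAPi by 1.10 (SE 0.16, DESeq2 adjusted p = 3.4e-10) and than in TAZi by 1.40 (SE 0.15, adjusted p = 3.5e-19). It was higher in TEADi than in YAPi by 1.13 (SE 0.17, adjusted p = 2.7e-09) and than in TAZi by 1.45 (SE 0.16, adjusted p = 3.1e-18). All 4 calls held without any 1 library. TEADi and YAPi_TAZi were not distinguished for CDKN1A (0.04, SE 0.15, adjusted p = 0.966). CCNE2 was lower in YAPi_TAZi than in YAPi by 2.67 on the log2 scale and lower than in TAZi by 2.17, with 6.67 and 22.1 expected counts in YAPi_TAZi, and it was lower in TEADi by 2.69 and 2.19. Each CCNE2 call was lost, or left without an adjusted p, in at least 2 of the 4 fits without 1 library. MYC was lower in YAPi_TAZi than in YAPi (log2 fold change -1.51, SE 0.27, adjusted p = 2.3e-06), which held without any 1 library, and than in TAZi (95% interval -1.46 to -0.54, adjusted p = 0.0005), which was lost without any 1 of the 4 (0.0452 to 0.321). It was also lower in TEADi than in YAPi (-1.07, SE 0.26, adjusted p = 0.00131), again lost without any 1 of the 4 (0.042 to 0.228).

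CCND1 was lower in YAPi_TAZi than in YAPi (log2 fold change -1.10, SE 0.15, DESeq2 adjusted p = 1.9e-11) and than in TAZi (-0.66, SE 0.13, adjusted p = 3.6e-05). With length offsets these were -0.82, still called, and -0.49 (adjusted p = 0.103). Other member calls between the set 1 knockdowns were also lost with these offsets, as counted in the closing section. It was lower in TEADi than in YAPi as well (-0.66, SE 0.14, adjusted p = 0.0002), and this call and the one against TAZi were lost without any 1 of their 4 libraries. TEADi and YAPi_TAZi differed for 1 gene, CDKN1B, with a log2 fold change of -0.96 in TEADi (SE 0.21, adjusted p = 0.00026), a call lost without any 1 library (0.0237 to 0.547) and in edgeR (0.0115). CDKN1C was higher in TEADi than in TAZi by 2.71 (SE 0.67, adjusted p = 0.00101), on 33 and 35 expected counts beside 4 and 9, and no fit without 1 library gave it an adjusted p. YAPi_TAZi had 1 member higher and 3 lower than YAPi (1.41% of all genes tested were called as higher and 3.42% as lower), and 1 higher and 3 lower than TAZi (2.14% and 4.52%). TEADi had 1 higher and 3 lower than YAPi (1.57% and 2.34%), 2 higher and 1 lower than TAZi (3.89% and 4.51%), and 1 lower than YAPi_TAZi (1.92% lower). YAPi against TAZi called 0 of 6 members tested (2.02% in either direction), where 2 (CCND1 and MYC) had an unadjusted DESeq2 p under 0.05, edgeR called 0 and the fit with the replicate term called CCND1. Of 16 S phase genes, 14 were tested against YAPi and all 16 against TAZi. YAPi_TAZi lowered 8 against YAPi and 14 against TAZi, and TEADi lowered 9 and 13, with list medians of -1.19 to -1.59. Between TEADi and YAPi_TAZi none was called in the 13 tested. CDC25A, the phosphatase that activates CDK2, was lower in YAPi_TAZi than in YAPi by 1.93 and in TEADi by 1.89.

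In set 2, neither JUNBi nor STAT3i changed a member past the threshold, where 3.41% and 0.497% of all genes tested were called by DESeq2. CDKN1A stood at 98.9 and 91.0 pcTPM in Ctrli, 76.0 and 78.4 in JUNBi and 86.2 and 99.4 in STAT3i. Both JUNBi libraries stood below both controls, with a log2 fold change of -0.55 (SE 0.19, DESeq2 adjusted p = 0.0432). MYC stood at 21.8 and 12.3 in Ctrli and at 32.7 and 45.01 in JUNBi (0.88, SE 0.26, adjusted p = 0.0184). In JUNBi these 2 members had an unadjusted DESeq2 p under 0.05, in STAT3i 0 had, and edgeR called 0 members in either. Independent filtering left an adjusted p for 6 of the members in JUNBi and 3 in STAT3i. In STAT3i it left 2013 genes tested and no adjusted p for STAT3 itself, whose log2 fold change was -2.41. The absence of calls there is therefore weak evidence of no response. JUNB changed by -2.04 in JUNBi (DESeq2 adjusted p = 2.3e-08). Of the lists, JUNBi lowered E2F1 by 0.90 and MXD4 by 0.84. Between the control groups of the sets, MYC stood at 130 and 17.0 pcTPM, CDKN1B at 30.2 and 4.43 and CCNE2 at 19.6 and 2.37, while CDKN1A stood at 98.6 and 94.98. Set cannot be told apart from anything else that differed between the control groups.

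Over the 10 ER-Src group means of log2(TPM + 1), the genes whose pattern was nearest to each member were ATP6V1F (Pearson r = 0.94), ARCN1 and HTRA1 for CDKN1A, DGUOK (0.96), PSPC1 and NFIB for CDKN1B, and GRHPR (0.97), TPGS2 and VIM for CDKN1C. They were LAD1 (0.95), CAB39 and APRT for CCND1, COTL1 (0.95), SDF4 and LZTR1 for CCND3, and NINJ1 (0.94), GATD1 and TMEM115 for MYC. These are descriptions over 10 points that share library scaling, picked as the highest of 3991 genes (3992 for CDKN1C).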

How the data were processed

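RNA was sequenced from 36 libraries of 2 human breast cell lines, grouped by the sample titles. Per the study's methods, libraries were made with the TruSeq Ribo Profile kit, and reads were aligned with STAR to the GENCODE 30 transcriptome and quantified with RSEM (versions not given in the sources used here). The methods name no other kit, although the protein-coding share differed widely between groups of libraries, as given above. The authors deposited RSEM expected counts, which are estimated and not normalized, and TPM, scaled by RSEM for effective length and depth. The deposited length and effective length (bases) served for an alternative. Strandedness is not given in the sources used here, so reads of genes overlapping on opposite strands cannot be told apart.

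Expected counts were rounded and compared by DESeq2 (1.42.0, R 4.3.3) as the study did: default size factors, Wald test, a run per comparison over all genes, Benjamini-Hochberg adjusted p under 0.01. Adjusted p-values are from DESeq2 unless edgeR is named. The difference of a knockdown effect between treatments was an interaction term. pcTPM (TPM over 19586 protein-coding genes) was chosen after seeing the data. Depth was 1411304 to 19161700 expected counts. Nothing says that the 2 libraries of a group are separate cultures, so p-values measure the spread between these libraries. Replicates differed beyond counting noise. DESeq2 and edgeR scripts were tested on simulated data. Floors cover counting error only.

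The members and lists were chosen with earlier results of these data known. Named genes are the members, the targeted genes, at most the 3 called genes with the lowest adjusted p per list and comparison, the 3 nearest in pattern per member (mean TPM of at least 5, among protein-coding genes of at least 10) and the markers. Alternatives were edgeR's quasi-likelihood test (4.0.16), TMM size factors, a mean count of at least 10, effective length offsets, the replicate number as a block, 1 fit over all groups, controls of both sets, leaving out each library and, added after seeing the data, protein-coding genes only. Symbols and coordinates (GRCh38) are from GENCODE 44, matching 93.1% of 60725 genes, and promoters from RefSeq. The 746 other identifiers were left out.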

Additional observations from a re-analysis of the deposited data

Results flagged for a closer look

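The response of CDKN1C to STAT3 siRNA differed between TAM and ETH in ER-Src cells, by 2.96 on the log2 scale (SE 0.50, DESeq2 adjusted p = 1.2e-06). The libraries under TAM stood at 42.5 and 41.3 pcTPM in STAT3i beside 2.37 and 5.35 in Ctrli, and those under ETH at 13.8 and 16.0 beside 8.15 and 14.2. The difference was tested as an interaction, and its adjusted p was 0.018 in edgeR. With 2 libraries per group, no group was large enough for a test of single outlying libraries.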

How the results depend on the processing

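Counts of members called depended on the setting as follows. For TAM against ETH in Ctrli, 0 calls became 1 in edgeR and 1 in the fit over all groups. In the knockdowns, 7 TAM calls became 2 in edgeR, 4 with effective length offsets and 4 in the fit over all groups. The 1 call of a difference between treatments became 0 in edgeR. The 17 calls against set 1 controls became 1 with the controls of both sets, the 16 calls between set 1 knockdowns became 8 with effective length offsets, and the 0 calls in set 2 became 1 in the fit over all groups. Leaving out 1 library gave 0 to 0 calls for TAM in Ctrli, 4 to 7 for TAM in the knockdowns, 4 to 8 for knockdowns in TAM, 2 to 7 in ETH, 1 to 2 for the difference, 8 to 18 against set 1 controls, 10 to 13 between set 1 knockdowns and 0 to 1 in set 2. The libraries behind the larger shifts were Ctrli TAM replicates 1 and 2 (4 and 5 knockdown calls under TAM without them), Ctrli ETH replicates 1 and 2 (2 and 3 under ETH), TAZi ETH replicate 2 and either TAZi TAM replicate (4 TAM calls), JUNBi ETH replicate 1 (2 differences), set 1 Ctrli replicates 1 and 2 (8 and 9 calls), TEADi replicate 2 (10) and set 2 Ctrli replicate 3 (1). The cause of these shifts was not tested, except that a fit without a library has fewer samples. In such a fit the lone library of its group is assumed to vary like the other group. No called value changed sign in any setting. Of the 56 called values, 23 kept the call without any 1 library and 13 kept it in none of those fits.

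A replicate block in the fits took the 9 knockdown calls under TAM to 5, and the 16 calls between set 1 knockdowns to 18. Deviations of same-numbered libraries from their group means correlated at 0.48 to 0.52 between set 1 knockdowns, where the numbers also go with length minus effective length and with the protein-coding share. Elsewhere the correlations ran from -0.048 to 0.33, highest for TAM against ETH in STAT3i (0.32) and JUNBi (0.33). Within each treatment the protein-coding share was also higher in replicate 1 than in replicate 2 in Ctrli, YAPi, STAT3i and JUNBi. In TAZi this held under ETH only. In Ctrli the shares were 27.74% and 23.89% under ETH and 23.59% and 22.82% under TAM, so the replicates overlapped across treatments. In JUNBi under ETH and TAM the share was 27.35% and 27.98% in replicate 1 and 23.43% and 23.61% in replicate 2. The labels name no pairing, and the main fits used none. For set 2 alone, no paired analysis was possible because its controls carry other replicate numbers than its knockdowns. Depth limits CCND2 in the set 1 knockdowns, at 3 to 8 expected counts per library, and CDKN1C, at 4 to 35.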
